A study of Mus musculus with 4 samples.

Results

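Myosins, tropomyosins, troponins, alpha-actinins and tropomodulins were followed in the erythroid progenitors of Rcor1 mutant mouse embryos. The members were chosen by name and by count: 72 genes of the table had a symbol that begins with Myh, Myl, Myo, Tpm, Tnnc, Tnni, Tnnt, Actn or Tmod and a number, and the 42 that reached 40 counts summed over the 4 libraries were kept, of 35927 genes in all. All 42 were among the 13140 genes that were tested. Messenger RNA was sequenced from C57BL/6 fetal liver cells of E13.5 embryos that had been sorted by flow cytometry as CD71+ TER119-, which is to say cells that carry the transferrin receptor and lack a surface protein of more mature erythroid cells. The mutant embryos were Rcor1-/-, lacking an intact copy of the gene for the corepressor scaffold CoREST, and the control embryos were Rcor1+/+ and Rcor1+/-, mixed in an unstated proportion. The 2 libraries of each group were made from RNA pooled over several livers, so single embryos cannot be told apart and a control pool is a mixture of genotypes. The comparison asks which genes of the contractile and membrane cytoskeleton differed when Rcor1 was lost.

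Myosins are motors that pull on or walk along actin filaments. Tropomyosins are rods that lie along the filament, troponin is the calcium-dependent switch that sits on tropomyosin in striated muscle, tropomodulins cap the slow-growing end of the filament, and alpha-actinins cross-link filaments. In red cells, short actin filaments bound by tropomyosin and capped by tropomodulin are the nodes of the spectrin skeleton under the membrane, and nonmuscle myosin II works in cell division and in the expulsion of the nucleus.

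The mutant libraries held 25186819 and 15053229 counts and the control libraries 26892375 and 22817080. A level is given in CPM, the count of a gene scaled by the library total and its TMM factor, and each change is the log2 ratio of mutant to control with its standard error and the Benjamini-Hochberg adjusted p of edgeR's quasi-likelihood test over all tested genes; a gene was called where that p was below 0.05. Rcor1 itself had 77.9 and 78.9 CPM in the mutant libraries, against 160.0 and 175.0 CPM in the control libraries, a change of -1.09 ± 0.06 (adjusted p = 4.6e-11). Erythroid markers were abundant in every library but lower in the mutant ones, with a summed level over 8 genes of 3320 and 3220 CPM against 4900 and 5040 CPM in the control libraries, and all 8 were called lower. Marker lists of other cell types moved the other way in sum. Over all tested genes, 28.3% were called higher and 29.2% lower. The summed level of 12 megakaryocyte genes was 332 and 320 CPM in mutant libraries, against 127 and 123 CPM in control libraries, and 10 were called higher and 1, Vwf, lower. For 11 granulocyte and macrophage genes the sums were 196 and 187 CPM in mutant libraries, against 63.3 and 65.3 CPM in control libraries, with 9 called higher and 1, Elane, lower. Of the genes called higher in these lists, Gp6 and Cybb were abundant enough for the test in both libraries of the mutant group only. Hepatoblast genes (1280 and 1290 CPM in mutant libraries against 944 and 932 CPM in control libraries) and endothelial genes (30.3 and 30.1 CPM against 12.4 and 11.6 CPM) summed higher in the mutant libraries as well. Of 10 hepatoblast genes, 7 were called higher and 3 did not pass, and Afp and Alb were the largest parts of the sum. Of 7 endothelial genes, 4 were called higher and 3, Cdh5, Stab2 and Lyve1, did not pass. In RNA of pooled cells, a change in the number of cells of a type and a change in the RNA per cell cannot be told apart.

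Of the 42 members, 19 were called higher in the mutant libraries and 10 lower, and 13 did not pass. That is 45.2% higher, where 28.3% of all tested genes were called higher, and 23.8% lower, where 29.2% of all tested genes were called lower. Under scaling by library totals alone the split was 22 members higher and 7 lower, with 5112 genes of the whole table higher and 2553 lower, where TMM scaling gave 3723 higher and 3835 lower. The median log2 fold change of the members was 0.24, beside 0.01 over all tested genes. At least a 2-fold rise was called for 13 members (31.0%, against 11.7% of all tested genes) and at least a 2-fold fall for 3 (7.14%, against 1.8% of all tested genes). The values of the groups did not overlap for 34 members, 81.0%, which is near the 77.9% of all tested genes. In the authors' deposited table all 42 members were listed, with 22 higher and 8 lower at a false discovery rate below 0.05, where 37.7% and 17.7% of that table's genes were higher and lower; no member was called in opposite directions by that table and the fit here. Of the members, 5 exceeded the filter on low values in a single group, among them Tnni2 and Myo15b in the mutant, and Myl7 and Myo15 in the control libraries. Tnni2 and Myo15b are counted in the 2-fold rises above, and Myl7 and Myo15 in the 2-fold falls. They passed the filter only through the group in which they were high, so the 2-fold shares do not stand as an excess among the members. The summed level of all members was 2980 and 3160 CPM in the mutant libraries, against 3100 and 3120 CPM in the control libraries. The sum did not separate the groups, while single families changed in opposite directions.

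**Figure D1:**
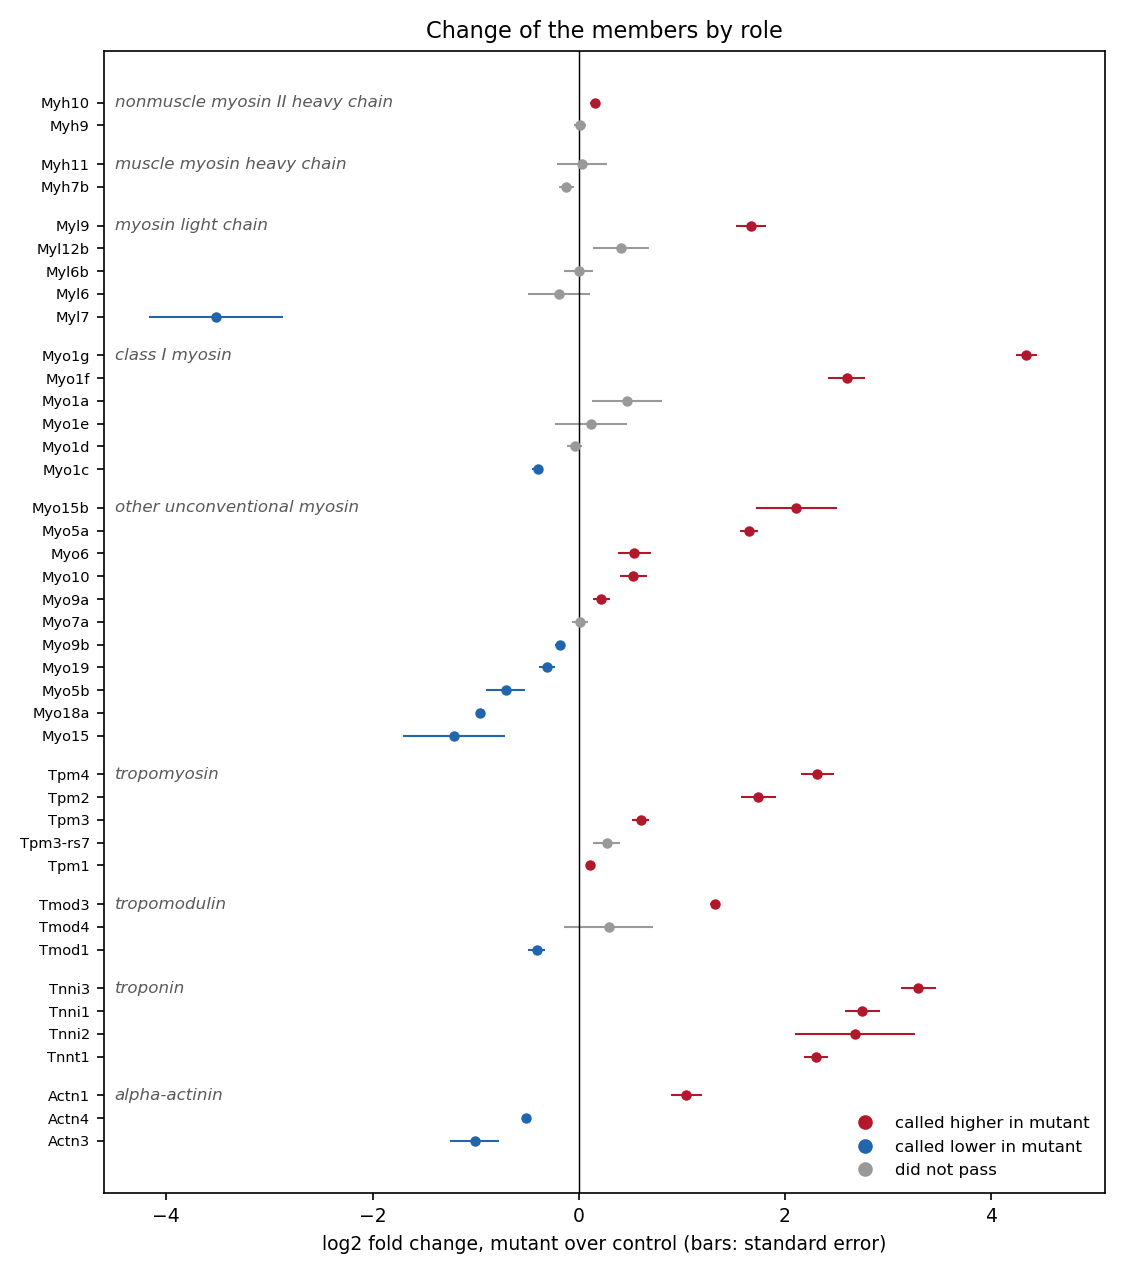
Log2 fold change of mutant over control for 41 of the 42 members, grouped by role, with bars for the standard error; red marks members called higher in the mutant libraries, blue those called lower and grey those that did not pass. All 4 troponins sit between 2.30 and 3.29, while the alpha-actinins, tropomodulins, light chains and unconventional myosins each hold members on both sides of 0.

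The troponin genes Tnni3, Tnni1 and Tnnt1, of the inhibitory and the tropomyosin-binding subunit, were higher in the Rcor1 mutant libraries, by 4.93-fold to 9.81-fold. Another, Tnni2, reached the count minimum only through its mutant counts, so its place among the members was set by the group in which it was high. Tnni3 (ENSMUSG00000035458), the inhibitory subunit of heart muscle, had 358 and 241 counts in the mutant libraries, against 40 and 29 counts in the control libraries. Its mean was 14.4 ± 1.28 CPM in mutants and 1.45 ± 0.166 CPM in controls (SD, n = 2 each), a change of 3.29 ± 0.17 (adjusted p = 3.62e-11). Tnni1, the inhibitory subunit of slow skeletal muscle, had 10.8 and 9.86 CPM in the mutant libraries, against 1.6 and 1.47 CPM in the control libraries (2.75 ± 0.17, adjusted p = 5.2e-10). In both genes both mutant libraries lay far above both control libraries.

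Tnnt1, the tropomyosin-binding subunit of slow skeletal muscle, was the most abundant troponin, with 18.6 and 18.3 CPM in the mutant libraries, against 3.71 and 3.76 CPM in the control libraries (2.30 ± 0.12, adjusted p = 7.99e-11). The mutant libraries lay far above both control libraries. Tnni2, the inhibitory subunit of fast skeletal muscle, rested on few reads, 16 and 19 counts in the mutant libraries against 3 and 3 in the control libraries, a change of 2.68 ± 0.58 (adjusted p = 0.000745). Summed, the 4 troponins had 43.5 and 44.7 CPM in the mutant libraries, against 7 and 6.7 CPM in the control libraries. Per exon length, Tnnt1 made up 45.8% and 43.0% of the troponin level in the mutant libraries, against 56.8% and 59.9% in the control libraries, and Tnni3 made up 35.6% and 38.6%, against 25.6% and 22.6%.

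The calcium-binding subunit that completes the troponin complex was not detected. Tnnc1 and Tnnc2, the troponin C genes of slow and of fast muscle, were listed at 0 counts in all 4 libraries, and a count of 0 allows up to 3 counts per library. Tnnt2, the heart muscle form of the tropomyosin-binding subunit, lay below the minimum with 7 and 8 counts in the mutant libraries, against 1 and 0 in the control libraries, and Tnnt3 had 1 count in all. Markers of striated muscle were near 0: of 26 genes, 24 had under 40 counts over the 4 libraries, and the muscle factors Myf5 and Myf6 and the muscle proteins Mybpc1, Myoz2 and Sln had none. The summed level of the 26 was 7.18 and 8.14 CPM in the mutant libraries, against 4.81 and 3.9 CPM in the control libraries. Among the 4 of them that were tested, Ryr1, a calcium channel (0.65, adjusted p = 0.00944), and Ttn, the giant spring protein titin (1.40, adjusted p = 0.0284), were called higher. Ttn had 13 and 13 counts in the mutant libraries, against 7 and 4 in the control libraries. It exceeded the filter on low values only in the mutant libraries, so it was tested only through the group in which it was high. The muscle actin Actc1, with 1.06 and 1.85 CPM in mutant libraries against 0.508 and 0.55 CPM in control libraries, was called higher as well (1.37 ± 0.37, adjusted p = 0.00478). The part of other cell types in the troponin result was not tested beyond these values.

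The promoters of the 3 troponins with a RefSeq entry are shown because these genes rose together, and those of Myo1g, Myl9 and Myl7 because they had the highest rise, and the rise and the steepest fall among light chains. Each line gives the 250 bases before the start of transcription in GRCm38.p6, 5′ to 3′ on the gene's own strand. Tnnt1 (chr7:4515976-4516225, minus strand) and Tnni3 (chr7:4522529-4522778, minus strand) are neighbours whose starts lie 6553 bases apart; the others are Tnni1 (chr1:135799171-135799420, plus strand), Myo1g (chr11:6520959-6521208, minus strand), Myl9 (chr2:156775214-156775463, plus strand) and Myl7 (chr11:5898783-5899032, minus strand). Capitals mark the motifs searched on both strands: the E-box CANNTG, the TATA box TATAAA, the CArG box, the GATA motif AGATAA, the Gfi1 core AAATCA and the PU.1 motif GAGGAAGT. Positions count back from the start, whose preceding base is -1, and for Tnni1 the first of the 2 starts in the table was used.
Tnnt1: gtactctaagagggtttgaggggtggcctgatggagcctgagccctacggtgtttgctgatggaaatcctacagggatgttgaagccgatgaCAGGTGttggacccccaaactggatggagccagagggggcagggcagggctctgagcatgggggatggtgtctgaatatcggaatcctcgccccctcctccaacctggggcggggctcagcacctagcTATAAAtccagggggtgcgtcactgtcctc
Tnni3: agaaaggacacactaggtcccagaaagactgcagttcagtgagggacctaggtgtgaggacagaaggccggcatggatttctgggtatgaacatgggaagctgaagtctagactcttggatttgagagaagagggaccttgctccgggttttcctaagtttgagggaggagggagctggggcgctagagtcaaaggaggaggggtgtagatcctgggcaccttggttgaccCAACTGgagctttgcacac
Tnni1: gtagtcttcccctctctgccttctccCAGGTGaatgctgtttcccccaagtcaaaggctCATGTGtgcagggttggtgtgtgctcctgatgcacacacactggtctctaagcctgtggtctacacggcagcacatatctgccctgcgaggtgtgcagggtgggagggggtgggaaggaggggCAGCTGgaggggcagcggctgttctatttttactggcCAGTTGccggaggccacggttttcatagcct
Myo1g: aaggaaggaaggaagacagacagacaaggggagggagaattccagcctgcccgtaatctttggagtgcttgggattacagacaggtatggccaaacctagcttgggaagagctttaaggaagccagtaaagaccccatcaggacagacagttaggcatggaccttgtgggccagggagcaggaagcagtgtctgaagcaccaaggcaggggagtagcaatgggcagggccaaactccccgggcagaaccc
Myl9: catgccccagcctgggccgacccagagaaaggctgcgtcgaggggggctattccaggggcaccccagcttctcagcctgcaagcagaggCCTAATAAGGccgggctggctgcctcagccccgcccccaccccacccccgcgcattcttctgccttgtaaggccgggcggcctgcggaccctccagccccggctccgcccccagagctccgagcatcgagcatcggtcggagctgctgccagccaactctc
Myl7: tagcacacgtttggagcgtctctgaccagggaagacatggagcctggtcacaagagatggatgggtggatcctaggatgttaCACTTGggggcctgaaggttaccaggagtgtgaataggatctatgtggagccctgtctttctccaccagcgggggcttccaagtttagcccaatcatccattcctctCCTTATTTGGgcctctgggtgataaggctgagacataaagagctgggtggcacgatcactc

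The E-box, which muscle bHLH factors bind and which is read the same on both strands, occurred 4 times before Tnni1 and once each before Tnnt1 and Tnni3. It was present in 61.9% of the 42 promoter entries of the members, which cover 34 of the 42 genes, and in 66.2% of all 32851 entries of the table. TATAAA lay 30 to 25 bases before the start of Tnnt1, and was found in 7.14% of member entries and 12.4% of all entries. The CArG box, the motif bound by serum response factor, was present in 4 member entries (9.52%, against 1.47% of all entries): Myl9 at bases -161 to -152, Myl7 at bases -61 to -52, and Myl6 and Myo1e. These 4 genes moved in different ways, since Myl9 was called higher, Myl7 lower, and Myl6 and Myo1e did not pass. The erythroid GATA motif was present in 4.76% of member entries and 9.99% of all entries. The core bound by the Gfi1 repressors, which recruit CoREST, was present in 9.52% and 12.4%, and the PU.1 motif in 0 of 42 member entries and 2.44% of all entries. No motifs overlapped in the 6 promoters shown. A match describes the letters in this window alone.

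**Figure D2:**
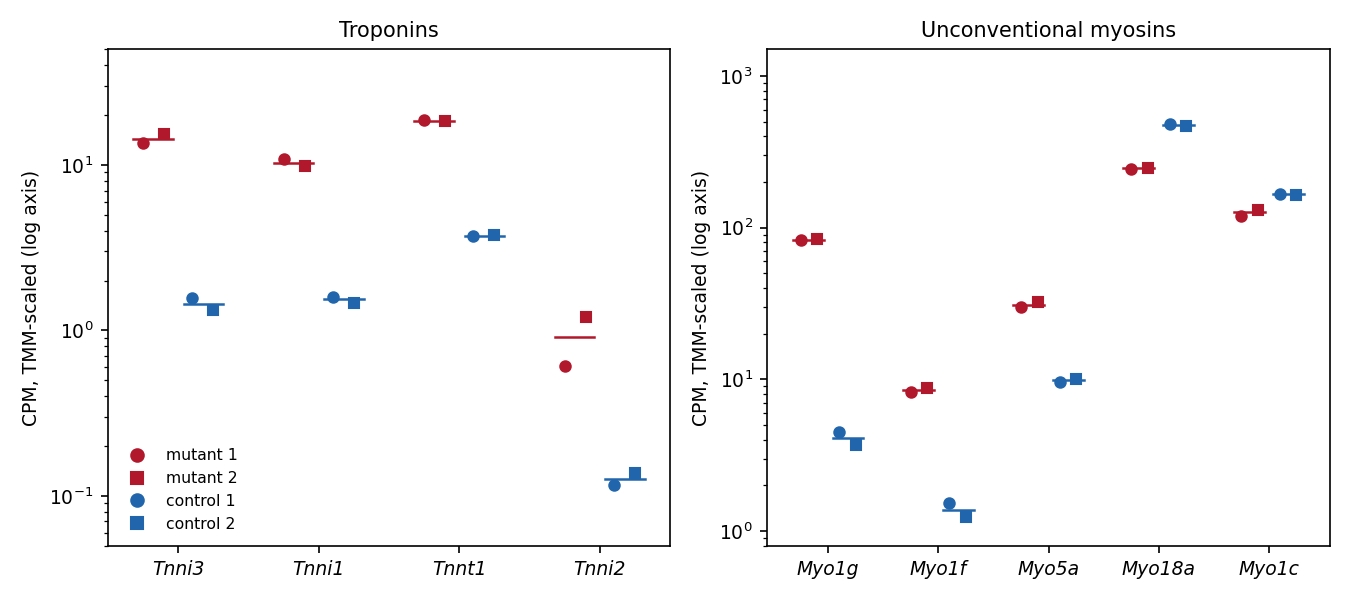
Level in CPM on log axes in each library, with circles for library 1, squares for library 2 and lines for group means; mutant libraries are red and control libraries blue. The troponins, Myo1g, Myo1f and Myo5a are higher in both mutant libraries, and Myo18a and Myo1c are higher in both control libraries.

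Tnni3 shares 86 of its 2063 exon bases with the gene Dnaaf3 on the same strand, so some reads may belong to either. Dnaaf3, an assembly factor of ciliary motors, had 1.93 and 2.1 CPM in the mutant libraries, against 1.13 and 0.596 CPM in the control libraries (1.17 ± 0.30, adjusted p = 0.00333). Ppp1r12c, a myosin phosphatase subunit gene next to Tnnt1, had 119 and 120 CPM in the mutant libraries, against 125 and 113 CPM in the control libraries, and did not pass (adjusted p = 0.988).

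The tropomyosins shifted toward members that were scarce in control cells, while the main member barely moved. Tpm4 (ENSMUSG00000031799), a low-molecular-weight tropomyosin of nonmuscle cells that is abundant in platelets, had 10.4 and 9.99 CPM in the mutant libraries, against 1.96 and 2.16 CPM in the control libraries (2.31 ± 0.16, adjusted p = 2.11e-09). Tpm2, the beta tropomyosin of muscle and fibroblasts, had 6.84 and 7.89 CPM in the mutant libraries, against 2.15 and 2.2 CPM in the control libraries (1.74 ± 0.17, adjusted p = 1.91e-07). Neither gene overlapped between groups, as was so for 77.9% of all tested genes. Tpm3, which supplies a tropomyosin of the red cell membrane skeleton, had 28.5 and 30.5 CPM in the mutant libraries, against 19.1 and 19.7 CPM in the control libraries (0.60 ± 0.08, adjusted p = 9.82e-06). Tpm3-rs7, a gene related in sequence to Tpm3, had 10.2 and 12.7 CPM in the mutant libraries, against 8.84 and 9.95 CPM in the control libraries, and did not pass (0.27 ± 0.13, adjusted p = 0.0916). It was called higher under upper quartile scaling (adjusted p = 0.0336) and library totals (0.0122), without control replicate 2 (0.0441) and without mutant replicate 1 (0.0329). How reads that map to both were counted is not stated, so the division of reads between Tpm3 and Tpm3-rs7 is uncertain.

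Tpm1, the most abundant tropomyosin and the source of the other red cell form, had 270.0 and 268 CPM in the mutant libraries, against 250.0 and 249 CPM in the control libraries, a change of 0.11 ± 0.04 (adjusted p = 0.044). This call did not survive the removal of any single library, and its adjusted p ran from 9.03e-05 to 0.291 over the alternatives. Per exon length, Tpm1 made up 71.6% and 69.5% of the tropomyosin level in the mutant libraries, against 81.3% and 80.0% in the control libraries. Tpm4 made up 8.12% and 7.62% in the mutant libraries, against 1.87% and 2.04% in the control libraries. The ratio of Tpm1 to Tpm4 per length was 8.82 and 9.12 in the mutant libraries, against 43.4 and 39.3 in the control libraries. The megakaryocyte markers given above were mostly higher in the mutant libraries, and so were mesenchymal genes. The summed level of 13 mesenchymal and smooth muscle genes was 27.9 and 25.6 CPM in the mutant libraries, against 8.95 and 8.99 CPM in the control libraries. Of the 11 tested, 8 were called higher, beside 28.3% of all tested genes. Among the 8, Pdgfra, Pdgfrb, Lum, Postn and Dcn exceeded the filter on low values in both libraries of the mutant group only. They were thus tested through the group in which they were high, so this share does not stand as an excess. Those 8 were collagen, matrix and Pdgf receptor genes, while of the smooth muscle genes Acta2, Tagln and Des did not pass, Cnn1 was not tested and Myocd had 1 count in all. Their part in the tropomyosin result was not tested.

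The tropomodulins changed in opposite directions. Tmod3 (ENSMUSG00000058587), the widely expressed pointed-end cap, had 287 and 288 CPM in the mutant libraries, against 116 and 114 CPM in the control libraries, a 2.5-fold rise (1.32 ± 0.05, adjusted p = 3.2e-13). Its means were 288 ± 0.106 CPM in mutants and 115 ± 1.19 CPM in controls (SD, n = 2 each), so the difference was far larger than the spread. Tmod1, the form that caps the filaments of the mature red cell skeleton, had 37 and 36.8 CPM in the mutant libraries, against 47.6 and 50.4 CPM in the control libraries (-0.41 ± 0.08, adjusted p = 0.000173). The ratio of Tmod3 to Tmod1 per exon length was 2.75 and 2.77 in the mutant libraries, against 0.861 and 0.802 in the control libraries, so Tmod3 was above Tmod1 in the mutant libraries and below it in the control libraries. Tmod1 shares 1287 of its 3946 exon bases with Tstd2 on the opposite strand, and use of strand in counting is not stated; Tstd2 did not pass (adjusted p = 0.116). Tmod4, the skeletal muscle form, had 0.491 and 0.891 CPM in the mutant libraries, against 0.547 and 0.504 CPM in the control libraries, and did not pass (0.29, adjusted p = 0.587). Tmod2, the neuronal form, had 4 counts over all libraries and was not a member.

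**Figure D3:**
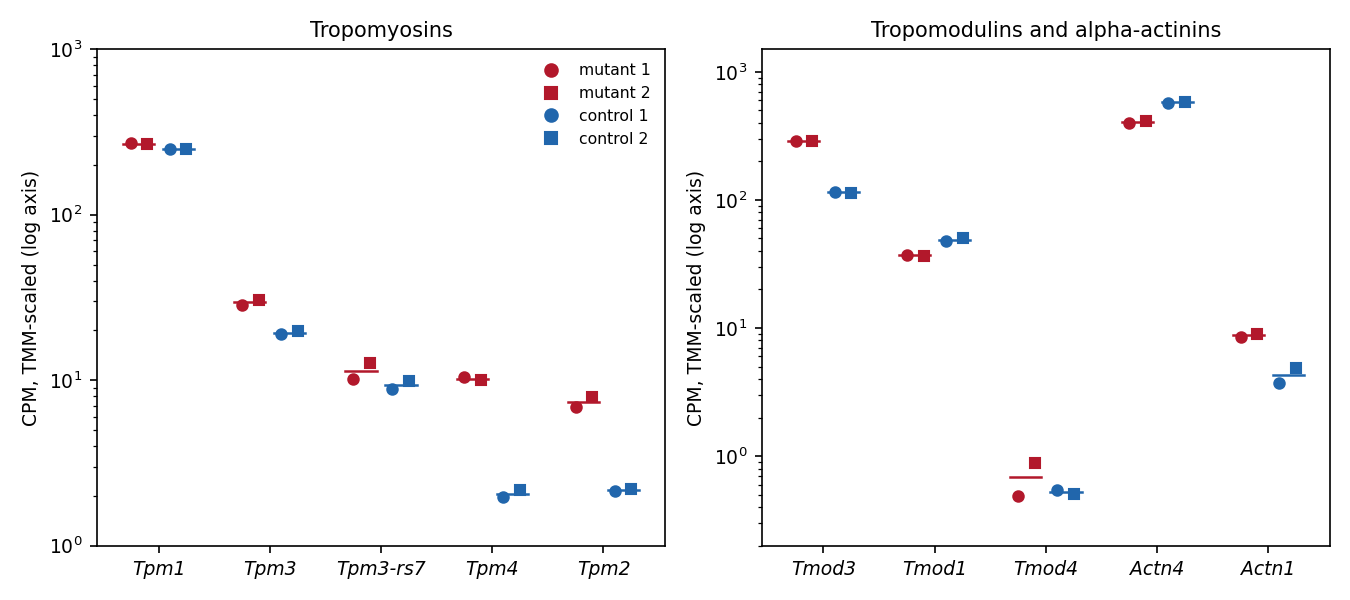
Level in CPM on log axes of the tropomyosins, tropomodulins and the alpha-actinins Actn4 and Actn1 in each library; circles are library 1, squares library 2, lines group means, with mutant libraries in red and control libraries in blue. Tmod3 lies at 287 and 288 CPM in the mutant libraries and at 116 and 114 CPM in the control libraries, while Tmod1 and Actn4 are higher in the control libraries.

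The motor subunits of nonmuscle myosin II were among the most abundant members and changed little. Myh10, the heavy chain of nonmuscle myosin IIB, had 528 and 597 CPM in the mutant libraries, against 503 and 500.0 CPM in the control libraries, a change of 0.16 ± 0.05 (adjusted p = 0.0145). The call depended on mutant replicate 2, without which the change was 0.08 (adjusted p = 0.236). Myh9, the heavy chain of nonmuscle myosin IIA, had 467 and 527 CPM in the mutant libraries, against 476 and 506 CPM in the control libraries; the groups overlapped and the gene did not pass (0.01 ± 0.06, adjusted p = 0.838), though under library totals alone it was called higher (0.15, adjusted p = 0.0271). Per exon length, Myh10 made up 58.3% and 58.3% of the sum of both in the mutant libraries, against 56.6% and 55.0% in the control libraries. Myh14, the third nonmuscle heavy chain, had 8 counts over all libraries and fell below the minimum.

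Muscle heavy chains were few and did not pass. Myh7b, a slow-type heavy chain gene, had 53.6 and 56.2 CPM in the mutant libraries, against 60.1 and 59.2 CPM in the control libraries (-0.12 ± 0.07, adjusted p = 0.141), and under scaling by library totals its sign was positive. Myh11, the smooth muscle heavy chain, had 2.15 and 1.72 CPM in the mutant libraries, against 1.92 and 1.97 CPM in the control libraries (adjusted p = 0.933). The other heavy chains of striated muscle stayed below the minimum, and Myh2, Myh4, Myh6 and Myh8 were listed at 0 counts.

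The light chains held the steepest fall of all members and a clear rise. Myl9 (ENSMUSG00000067818), a regulatory light chain of nonmuscle and smooth muscle myosin II, had 9.82 and 9.03 CPM in the mutant libraries, against 2.97 and 2.98 CPM in the control libraries (1.67 ± 0.15, adjusted p = 6.14e-08). Myl7 (ENSMUSG00000020469), the regulatory light chain of the heart atrium, had 3 and 1 counts in the mutant libraries, against 18 and 36 counts in the control libraries. Myl7 reached the count minimum only through its control counts. Its place among the members was thus set by the group in which it was high. Its fitted change was -3.52 ± 0.65 (adjusted p = 0.000254), and without control replicate 2 it was -2.84. The groups did not overlap for either gene, which held for 77.9% of all tested genes. The changes of Myl9 and Myl7 had opposite signs, and both genes have a CArG box in the promoters printed above.

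The remaining light chains did not pass. Myl12b, the other regulatory chain, had 5.03 and 2.74 CPM in the mutant libraries, against 3.56 and 2.52 CPM in the control libraries (0.41 ± 0.27, adjusted p = 0.232), and passed without mutant replicate 2 and without control replicate 1. Its near-identical neighbour Myl12a, listed in the table under an older clone name and so not a member, had 81.0 and 76.9 CPM in the mutant libraries, against 80.5 and 65.7 CPM in the control libraries (0.11 ± 0.09, adjusted p = 0.294). The essential light chain Myl6 was listed at only 1.25 and 1.21 CPM in the mutant libraries, against 1.72 and 1.05 CPM in the control libraries, and its relative Myl6b at 6.39 and 5.73 CPM, against 6.22 and 6.01 CPM. Myl6, Myl12a and Myl12b have near-identical copies, and the nonmuscle actin Actg1, which has many, was listed at about 1 CPM in every library, so the levels of these genes are uncertain.

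Class I myosins, single-headed motors that link membranes to actin, held the highest rise of all members. Myo1g (ENSMUSG00000020437), a class I myosin of blood cell membranes, had 82.3 and 84.2 CPM in the mutant libraries, against 4.5 and 3.67 CPM in the control libraries. Its mean was 83.2 ± 1.36 CPM in mutants and 4.08 ± 0.586 CPM in controls (SD, n = 2 each), a 20.2-fold rise (4.34 ± 0.10, adjusted p = 1.74e-15). Myo1f, a class I myosin of immune cells, had 8.24 and 8.72 CPM in the mutant libraries, against 1.53 and 1.24 CPM in the control libraries (2.60 ± 0.18, adjusted p = 2.73e-09). Myo1c, a widely expressed class I myosin that moves membrane cargo, had 120.0 and 131 CPM in the mutant libraries, against 166 and 165 CPM in the control libraries (-0.40 ± 0.05, adjusted p = 5.4e-06).

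Because Myo1g rose and Myo1c fell, the makeup of the class changed. Per exon length, Myo1g made up 30.1% and 29.1% of the class I level in the mutant libraries, against 1.91% and 1.57% in the control libraries, and Myo1c made up 46.5% and 48.0%, against 74.4% and 74.7%. The ratio of Myo1g to Myo1c per length was 0.647 and 0.606 in the mutant libraries, against 0.0256 and 0.021 in the control libraries. Myo1d, another widely expressed class I myosin, had 45.6 and 47.2 CPM in the mutant libraries, against 47.5 and 47.7 CPM in the control libraries, and did not pass (adjusted p = 0.674). Myo1a and Myo1e, with means of at most 1.0 CPM in either group, did not pass. Of 11 granulocyte and macrophage markers, 9 were called higher, as Myo1g and Myo1f were, beside 28.3% of all tested genes. Among them was Sfpi1, which encodes PU.1, with 84.9 and 80.5 CPM in the mutant libraries against 12.4 and 8.76 CPM in the control libraries. Cybb, also called higher, exceeded the filter on low values in both libraries of the mutant group only. The macrophage gene Emr1 had 2.53 and 2.86 CPM in the mutant libraries against 1.92 and 1.74 CPM in the control libraries (adjusted p = 0.046). Elane was called lower (-0.87, adjusted p = 0.00331) and Ctsg did not pass (-0.53, adjusted p = 0.0583). The part of these markers in the rise of Myo1g and Myo1f was not tested.

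Of the 11 other unconventional myosins, 5 were called higher and 5 lower, beside 28.3% and 29.2% of all tested genes. Myo7a did not pass (0.01, adjusted p = 0.909). Among the called genes, Myo15b exceeded the filter on low values only in the mutant libraries, and Myo15 only in the control libraries. Myo18a (ENSMUSG00000000631), a myosin with a PDZ domain that associates with the Golgi, had 242 and 249 CPM in the mutant libraries, against 483 and 470.0 CPM in the control libraries (-0.96 ± 0.04, adjusted p = 1.01e-11). Per exon length, Myo18a made up 29.7% and 30.2% of the level of these 11 genes in the mutant libraries, against 44.8% and 43.7% in the control libraries. Myo5a, a vesicle carrier that walks toward the fast-growing filament end, had 29.8 and 32.2 CPM in the mutant libraries, against 9.54 and 10.1 CPM in the control libraries (1.65 ± 0.09, adjusted p = 1.82e-10). Its relative Myo5b, a motor of recycling endosomes, went the other way, with 2.87 and 3.05 CPM in the mutant libraries, against 4.26 and 5.41 CPM in the control libraries (-0.71 ± 0.19, adjusted p = 0.00363), though not with DESeq2 (adjusted p = 0.062).

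The smaller changes in this class had their own spread of stability. Myo9b, a myosin that carries a RhoGAP domain, had 161 and 159 CPM in the mutant libraries, against 181 and 183 CPM in the control libraries (-0.18 ± 0.05, adjusted p = 0.00276), and was not called under upper quartile scaling or scaling by library totals. Per exon length it stood above Myo18a in the mutant libraries, with 42.2% and 41.4% of the 11 genes, and below it in the control libraries, with 35.9% and 36.4%. Myo9a, its relative, rose by 0.22 (adjusted p = 0.0268), a call lost under 4 alternatives. Myo19, the motor of mitochondria, fell by 0.31 (adjusted p = 0.00351) and was not called under library totals or without mutant replicate 2. Myo10, the motor of filopodia, rose by 0.53 (adjusted p = 0.00198), and Myo6, the motor that walks toward the slow-growing end, rose by 0.54 (adjusted p = 0.00737); neither was called with DESeq2, and Myo6 not without control replicate 1. Myo15b had 37 and 18 counts in the mutant libraries, against 8 and 6 in the control libraries (2.11 ± 0.39, adjusted p = 0.000188), and Myo15, a motor of inner ear hair bundles, had 9 and 4 counts, against 13 and 21 (-1.21 ± 0.49, adjusted p = 0.0421), a call lost under 7 alternatives. Summed, the 11 genes had 550.0 and 561 CPM in the mutant libraries, against 786 and 781 CPM in the control libraries.

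The alpha-actinins were lower in sum, since the abundant member fell and a scarce member rose. Actn4 (ENSMUSG00000054808), a nonmuscle alpha-actinin and the highest of all members per length in both groups, had 395 and 414 CPM in the mutant libraries, against 572 and 579 CPM in the control libraries (-0.51 ± 0.04, adjusted p = 2.58e-08). Actn1, the other nonmuscle form, had 8.58 and 9.03 CPM in the mutant libraries, against 3.71 and 4.86 CPM in the control libraries (1.04 ± 0.15, adjusted p = 2.05e-05). Actn3, the fast skeletal muscle form, had 1.66 and 1.08 CPM in the mutant libraries, against 2.89 and 2.89 CPM in the control libraries (-1.01 ± 0.24, adjusted p = 0.00177). The groups did not overlap for any of the 3, which held for 77.9% of all tested genes. The ratio of Actn4 to Actn1 per length was 41.6 and 41.4 in the mutant libraries, against 139 and 108 in the control libraries. Actn2, the heart muscle form, had 1 count over all libraries.

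**Figure D4:**
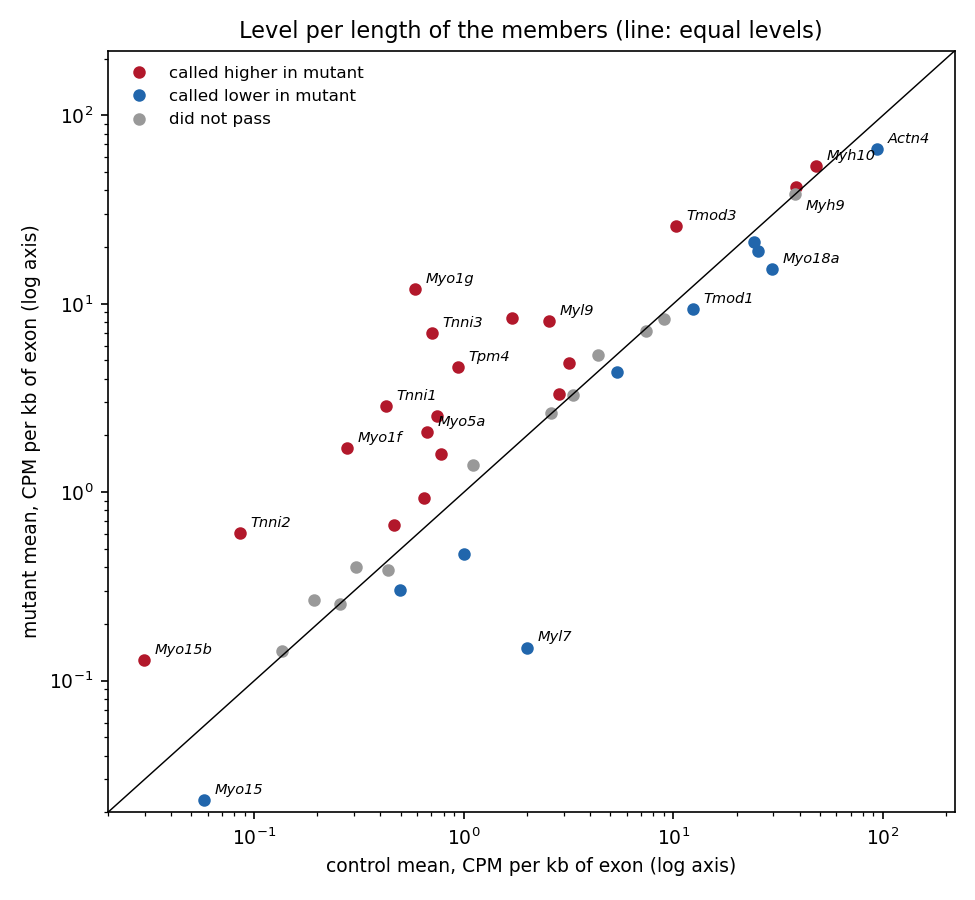
Mean level per kilobase of exon of 41 of the 42 members, mutant against control on log axes, with a line at equal levels; red points were called higher in the mutant libraries, blue points lower, and grey points did not pass. The highest members, Actn4 (66.0 and 94.0 CPM per kb in mutant and control) and Myh10 (53.8 and 48.0), lie near the line, and members far from it, such as Myo1g, Tnni3 and Myl7, are of middle or low level.

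Per exon length, the order of the leading members in the mutant libraries was Actn4 (66.0 CPM per kb), Myh10 (53.8), Tpm1 (41.5), Myh9 (38.4) and Tmod3 (25.8). In the control libraries it was Actn4 (94.0 CPM per kb), Myh10 (48.0), Tpm1 (38.5), Myh9 (38.0) and Myo18a (29.7). In both groups the means of Tpm1 and Myh9 differed by less than the spread of Myh9 between libraries. Tmod3, at 10.3 CPM per kb in control libraries, and Myo18a, at 15.3 in mutant libraries, exchanged the fifth place. Myo1g, at 12.0 CPM per kb in the mutant libraries, stood above Tmod1 (9.34) there, and at 0.587 in the control libraries far below it (12.4).

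Regulators of actomyosin included genes that moved either way. Of 26 genes, 22 were tested, 11 were called higher, 5 lower and 6 did not pass, with a median log2 fold change of 0.14, beside 28.3% higher, 29.2% lower and a median of 0.01 over all tested genes. The highest rises were those of the calponin Cnn2 (1.81), the myosin light chain kinase Mylk (1.74), which had 3.17 and 2.35 CPM in the mutant libraries against 0.782 and 0.917 CPM in the control libraries, and the GTPase Rhoc (1.55). The steepest falls were those of Cnn3 (-1.35), of Cit (-0.79), the citron kinase that acts on myosin II in cell division, and of Ppp1r12b (-0.63), a subunit of myosin phosphatase. Cit had 109 and 106 CPM in the mutant libraries, against 183 and 189 CPM in the control libraries (adjusted p = 5.85e-10). The kinases Rock1 (0.33) and Rock2 (0.36), which phosphorylate myosin II light chains, were called higher by small amounts.

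Of 17 tested genes of actin and its other binding proteins, 5 were called higher, 4 lower and 8 did not pass, shares near the 28.3% higher and 29.2% lower of all tested genes, with a median of 0.08. Tmsb4x, which encodes the actin-sequestering peptide thymosin beta 4, had 350.0 and 346 CPM in the mutant libraries, against 54 and 51.4 CPM in the control libraries (2.72 ± 0.05, adjusted p = 1.21e-16). Gsn, the severing protein gelsolin (0.73), and Actc1 were the next highest rises. Actb, a nonmuscle actin, had 357 and 381 CPM in the mutant libraries, against 521 and 530.0 CPM in the control libraries (-0.51 ± 0.04, adjusted p = 4.35e-08). Srf, the transcription factor that binds CArG boxes, fell by 0.74, and Pfn1, the actin-loading protein profilin, fell by 0.49.

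In the red cell membrane skeleton, 2 of 10 genes were called higher, 6 lower and 2 did not pass, with a median of -0.19, beside 28.3% higher and 29.2% lower over all tested genes. Add3, an adducin that joins spectrin to actin, had 275 and 282 CPM in the mutant libraries, against 111 and 117 CPM in the control libraries (1.29 ± 0.05, adjusted p = 7.04e-13), and Spna1, alpha spectrin, rose by 0.33. The steepest falls were those of Epb4.2, which encodes protein 4.2 (-1.05), of Epb4.9, the actin-bundling dematin (-0.43), and of Ank1, the membrane anchor ankyrin (-0.42).

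**Figure D5:**
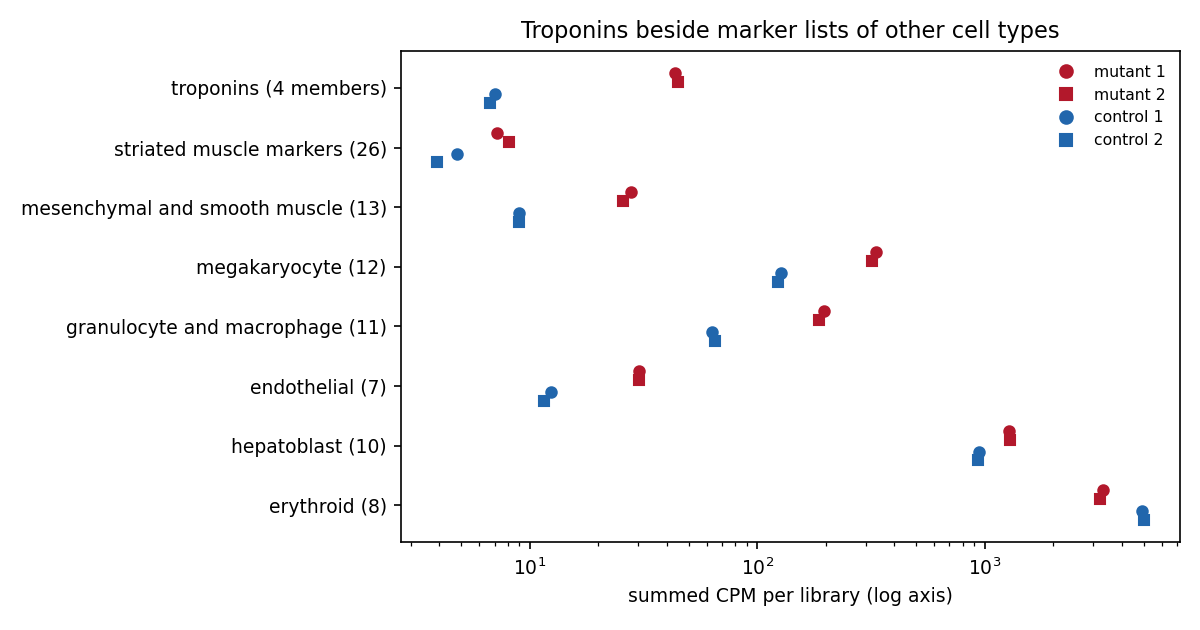
Summed level per library, in CPM on a log axis, of the 4 troponins and of marker lists of other cell types and of erythroid cells, with the number of genes in each list in brackets; mutant libraries are red and control libraries blue, with circles for library 1 and squares for library 2. The troponins sum to 43.5 and 44.7 CPM in the mutant libraries, against 7 and 6.7 CPM in the control libraries, and every list but the erythroid one is higher in the mutant libraries.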

How the data were processed

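Counts per gene were fitted for 2 mutant and 2 control libraries, grouped by their labels. Per the file headers, the deposited values are raw counts per gene and, in a second table, the authors' log2 ratios of mutant to WT beside p-values and false discovery rates; FastQC, Bowtie and edgeR were used with mm9, per the submitters' processing notes. Columns named WT were taken as the control samples of the same number. The authors' log2 fold changes follow library totals without further scaling, within 0.0662 over 8847 genes. Strand use and the treatment of reads with several matches are not given in the sources used here, and the files hold no coordinates.

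Of 35939 genes, 12 that held NA were left out. edgeR 4.0.16 in R 4.3.3 (filterByExpr, a minimum of about 0.417 CPM; TMM; glmQLFit with robust; glmQLFTest) gave two-sided tests, and the standard error was taken as the size of the change divided by the root of the F statistic. The fit was tested on simulated counts. The 2 libraries of a group differed beyond counting noise (chi-square per gene 3.67 in mutants and 5.76 in controls, over 10006 genes), so none was counted as a duplicate. The bound given for a count of 0 covers counting error only. Standard errors and SDs also include the spread between libraries. Sums and ratios were not tested and are given per library; an exact permutation test cannot pass with 2 libraries a group. Levels between genes are per exon length, from the exon union of GENCODE vM21, and promoters are from RefSeq on GRCm38.p6.

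The values of 1 member are counted in totals but not reported here. Members and lists were chosen with earlier results of these data known. Named in full were the myosin II chains, tropomyosins, tropomodulins, alpha-actinins and troponins, the 5 largest rises and falls reaching 1 CPM on average in either group, the 5 highest members, and up to 3 rises and falls of each list; other genes were named after their values were seen. Alternatives were RLE and upper quartile scaling, library totals, 2 other filters, the exact test of edgeR, DESeq2 1.42.0, voom in limma 3.58.1, a glmQLFit without robust, a replicate block, and the removal of single libraries.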

Additional observations from a re-analysis of the deposited data

How the results depend on the processing

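The counts of members stayed within 1.5 times under every alternative, from 15 to 22 higher and from 7 to 10 lower, and 20 of the 29 called members, among them all 13 with at least a 2-fold rise, kept their call under each alternative that tested them. Of those 13, Tnni2 and Myo15b exceeded the filter on low values only in the mutant libraries, so their stable calls add no support. The median of the members moved to 0.32 under upper quartile scaling and 0.38 under library totals, which also moved the median of all genes, to 0.0855 and 0.146, and ran from 0.16 to 0.27 with a library left out. With the replicate number as a block (replicate block), 20 members were higher and 10 lower, with Tpm3-rs7 passing (adjusted p = 0.0297); same-numbered libraries deviated together (r = 0.466 over 8354 genes), but with 2 pairs the numbers were not taken to pair them. Signs turned for members that did not pass. Under library totals these were Myh7b (0.01), Myl6b (0.14) and Myo1d (0.10), and under upper quartile scaling Myl6b (0.07) and Myo1d (0.04). With no filter they were Myh9 (-0.02), Myh11 (-0.01) and Myo7a (-0.02), with DESeq2 Myh9 (-0.0092), Myh11 (-0.02) and Myo7a (-0.0082), and for Myl6b with the stricter filter 0.02 and limma-voom 0.00092. With a library left out, the lowest and highest values were -0.18 and 0.15 for Myh11, -0.07 and 0.10 for Myh9, -0.16 and 0.72 for Myl12b, -0.5 and 0.21 for Myl6, -0.09 and 0.07 for Myl6b, -0.15 and 0.28 for Myo1e, -0.03 and 0.07 for Myo7a and -0.10 and 0.75 for Tmod4; the cause was not tested. Requiring more than 1 CPM in 2 libraries left out 6 members, among them Myl7, Myo15, Myo1e, Tmod4 and Tnni2. Precision was lowest for scarce members, with standard errors of 0.58 for Tnni2 and 0.65 for Myl7.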

Other observations

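Below the count minimum lay 30 of the 72 genes, 10 of them with no count and 5 with 10 or more. Just inside it were Tnni2 with 41 counts and Myo15 with 47, and just outside it Myo1h with 32, Tnnt2 with 16 and Myl4 with 14. Myo1h, another class I myosin, had 12 and 12 counts in the mutant libraries, against 5 and 3 in the control libraries, and Myo18b, the muscle relative of Myo18a, had 6 and 5 counts, against 1 and 0. Myh3, the embryonic muscle heavy chain, had 4 and 1 counts in the mutant libraries, against 0 and 1 in the control libraries. These genes were not tested.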
